A study of Homo sapiens with 9 samples.

Results

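MHCC97L is a human hepatocellular carcinoma (HCC) cell line, and MHCC97L-Src is the line raised from it to resist saracatinib (AZD0530), an inhibitor of the tyrosine kinase SRC and its family. Its 3 libraries were set against the 3 libraries of parental MHCC97L, and together these made up 6 of the 9 libraries of the series. Libraries were chosen by the line named in their label, and every gene that passed a count filter was tested. The study asked how resistance to saracatinib bears on the response of HCC to oxaliplatin. Both lines were grown in DMEM supplemented with fetal bovine serum. MHCC97L carried no selection, whereas MHCC97L-Src was exposed to stepwise higher saracatinib until it was stable at 4 μmol/L. MHCC97L-Src was a single resistant line from a single parental line, so a change brought by the drug and a change that arose by chance in that one selected population cannot be told apart. The sources used here do not say whether saracatinib was in the medium at harvest, and the study describes its libraries as independent experiments without saying how they were prepared. P-values therefore measured the spread between these libraries, part of which may be technical.

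SRC family kinases sit beneath the inner face of the cell membrane and relay signals from integrins and growth factor receptors to focal adhesions, to the RAS and ERK cascade and to the transcriptional co-activators YAP and TAZ. ERK switches on transcription factors of the ETS family together with its own inhibitors, the dual specificity phosphatases and the Sprouty proteins. YAP and TAZ act through TEAD factors on genes such as CTGF and CYR61, while bone morphogenetic proteins (BMPs) and TGF-beta act through SMAD proteins on ID1, ID2, ID3, SMAD6 and SMAD7.

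Counts on genes totalled 16970486 to 17978547 per library, and 12037 of the 20030 genes listed passed the filter. Few genes of the hepatocyte were counted well enough to be tested. Of 36 hepatocyte markers, 14 had no count in any of the 6 libraries, ALB and AFP among them, and 5 passed the filter. HNF4A had 2, 8 and 5 counts in parental cells and 7, 4 and 10 in resistant cells. The summed hepatocyte markers were at 76.6 to 518 CPM (counts scaled to library size) in MHCC97L and 160 to 182 CPM in MHCC97L-Src, and CPS1, the first enzyme of the urea cycle, supplied 90.1% of the counts. The keratin genes KRT8 and KRT18 had at least 37332 and 22160 counts in every library. PTPRC, CD3E, LYZ, KDR and PDGFRA, which mark blood, endothelial and mesenchymal cells, had no count, but other markers of these cells were counted. Of the markers listed, 4 of 8 for blood, 2 of 6 for endothelial cells and 1 of 6 for fibroblasts had no count. The fibroblast markers summed to 527 to 711 CPM in MHCC97L.

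The parental libraries differed from each other by the GC content of the gene. Across genes, the deviation of a library from the mean of the 6 libraries correlated with GC content at a Spearman rho of -0.79 in MHCC97L 1, 0.37 in MHCC97L 2 and -0.20 in MHCC97L 3, against 0.58, 0.72 and 0.26 in the MHCC97L-Src libraries. In the lowest of 10 equal bins of genes by GC content, 30.2 to 38.7%, the median deviation was 1.82 on the log2 scale in MHCC97L 1, -0.58 in MHCC97L 2 and 0.58 in MHCC97L 3, and it lay between -0.75 and -0.42 in MHCC97L-Src. The median log2 fold change of these 1195 genes was -1.59, and it was -0.14 after GC content and transcript length were fitted in each library. In the highest bin, 62.0 to 74.7%, the median log2 fold change was 0.42 before this correction and -0.03 after it. In log2 CPM across genes, MHCC97L 2 correlated with the MHCC97L-Src libraries at 0.9505 to 0.9658. With the other parental libraries it correlated at 0.8519 to 0.9546. MHCC97L 1 stood apart from the other 5 libraries, and counts of calls are therefore given with the correction beside those without it. Its part in any one gene's change was not tested beyond that.

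**Figure D1:**
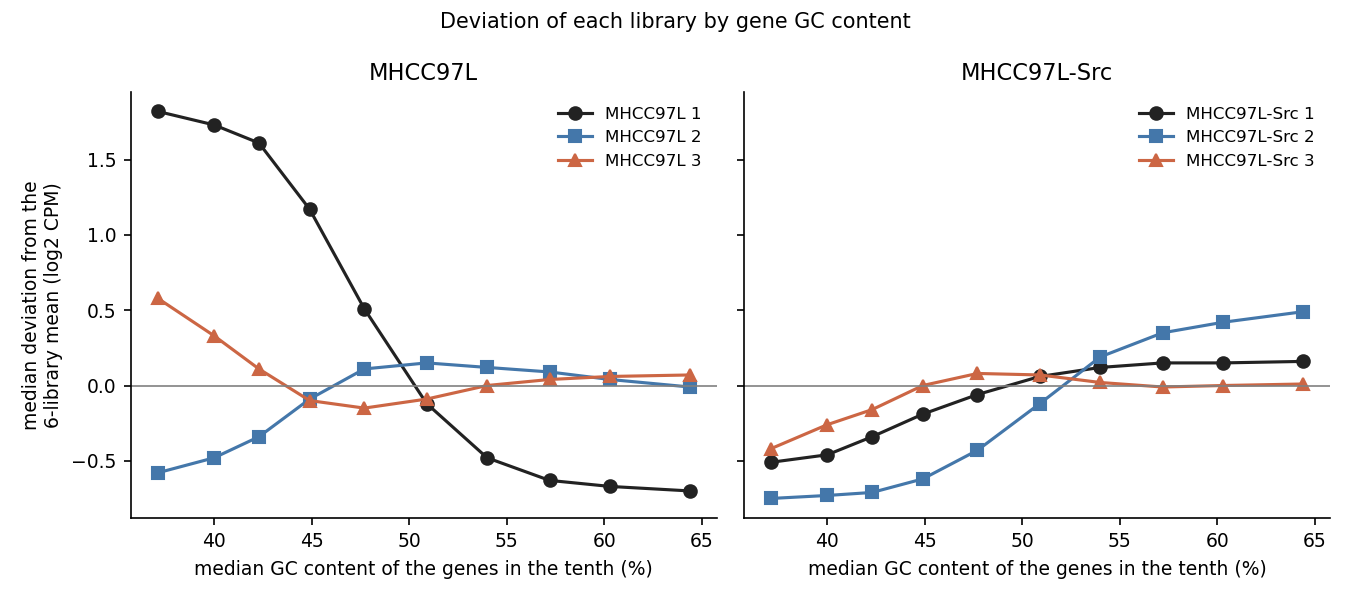
Median deviation of each library from the mean of the 6 libraries (log2 CPM, vertical axis) in 10 equal bins of the tested genes ordered by GC content (median of the bin in percent, horizontal axis), with 1 panel for each line and 1 curve for each library. MHCC97L 1 stands at 1.82 in the lowest bin and at -0.70 in the highest, whereas the 3 MHCC97L-Src curves start between -0.75 and -0.42.

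By edgeR's quasi-likelihood test with Benjamini-Hochberg adjustment, 256 of the 12037 genes (2.13%) differed at an adjusted p under 0.05. Of these, 172 rose in MHCC97L-Src (1.43% of genes tested) and 84 fell (0.698%). After the GC and length correction 1278 genes (10.6%) were called, of which 662 rose (5.5%) and 616 fell (5.12%). These shares are the measure for each count of called members of a list or pathway below. Both fits called 246 genes in the same direction, which made up 96.1% of the calls without the correction and 19.2% of those with it. The share of calls that were rises was 67.2% without the correction and 51.8% with it, and 29.4% when the correction kept the TMM scale. The median log2 fold change of all genes was -0.16 without the correction, -0.04 with it and -0.29 with the correction that kept the TMM scale. The 172 genes that rose had a median GC content of 56.8% and the 84 that fell one of 51.5%, against 49.2% for all genes tested. The groups did not overlap in normalized CPM for 29.8% of the genes tested, with MHCC97L-Src above in 17.6% and below in 12.2%.

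Of the 93 called genes chosen for description, 15 stayed under an adjusted p of 0.05 whichever library was left out. These were PTGS1, TNFRSF1B, S100A9, CASP14, UNC5B, GDF15, CYR61, DKK1, ABCG1, CA9, SULF2, ID2, TAGLN, KANK4 and SLC12A8. All 93 held without MHCC97L 1 and without MHCC97L 2, but 17 held without MHCC97L 3, 35 without MHCC97L-Src 1, 29 without MHCC97L-Src 2 and 19 without MHCC97L-Src 3. With the GC and length correction, 70 to 90 of the 93 held with 1 library left out. None of the 93 changed direction with a library left out before the correction.

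Promoter sequences of 4 genes are shown first because each held a match to a short element, in genes whose counts are described below. The TEAD and SMAD elements belong to pathways described above, and the CArG box and the AP-1 motif do not. Each is the stretch of 250 bases just before the start of the gene, as RefSeq places it on GRCh38.p14, read 5′ to 3′ on the strand of the gene. Capitals mark the element, and positions are counted back from the start of the gene at -1. CTGF held the TEAD motif GGAATG 3 times, from -169 to -164, -104 to -99 and -95 to -90. ACTC1 held 1 CArG box, the element of serum response factor, from -109 to -100. SMAD6 held the palindromic SMAD motif GTCTAGAC from -12 to -5. CASP14 held the AP-1 motif TGANTCA from -190 to -184.
CTGF chr6:131951373-131951622 (minus strand): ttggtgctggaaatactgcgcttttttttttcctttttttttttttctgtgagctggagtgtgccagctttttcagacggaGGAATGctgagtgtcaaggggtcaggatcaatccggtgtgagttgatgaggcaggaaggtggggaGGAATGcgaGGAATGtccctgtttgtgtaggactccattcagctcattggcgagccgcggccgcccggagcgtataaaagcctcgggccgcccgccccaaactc
ACTC1 chr15:34795550-34795799 (minus strand): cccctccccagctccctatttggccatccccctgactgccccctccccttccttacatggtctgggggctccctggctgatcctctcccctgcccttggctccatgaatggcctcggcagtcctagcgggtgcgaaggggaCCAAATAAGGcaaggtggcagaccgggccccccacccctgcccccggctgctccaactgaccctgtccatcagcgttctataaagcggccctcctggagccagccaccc
SMAD6 chr15:66701986-66702235 (plus strand): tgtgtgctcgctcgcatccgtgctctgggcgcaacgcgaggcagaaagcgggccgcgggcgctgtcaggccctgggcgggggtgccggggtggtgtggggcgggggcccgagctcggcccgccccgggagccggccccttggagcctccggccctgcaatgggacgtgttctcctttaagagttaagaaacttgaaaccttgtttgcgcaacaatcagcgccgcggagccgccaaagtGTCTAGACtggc
CASP14 chr19:15049230-15049479 (plus strand): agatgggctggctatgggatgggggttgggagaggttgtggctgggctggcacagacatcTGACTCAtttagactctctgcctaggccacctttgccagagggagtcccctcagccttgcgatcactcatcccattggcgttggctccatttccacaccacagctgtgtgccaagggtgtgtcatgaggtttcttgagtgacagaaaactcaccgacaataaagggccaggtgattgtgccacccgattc

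Both strands were searched, and 19 of the 28 genes looked up were in the RefSeq table. GGAATG was in 11.9% of all 35116 promoters of this length, the CArG box in 1.16%, GTCTAGAC in 0.182% and TGANTCA in 6.57%. Among the TEAD target genes, 2 of 3 were matched and 1 of these held GGAATG. Of 4 actin and myosin associated genes 2 were matched, ACTC1 and ACTG2, and both held a CArG box. GTCTAGAC was in SMAD6 alone among 6 matched genes of the TGF-beta and BMP response. The SMAD motif GGCGCC, found in 16.4% of promoters, was in PMEPA1 and SKIL. The ETS motif CCGGAA, found in 14.5% of promoters, was in none of the 3 matched ERK output genes, DUSP6, SPRY1 and SPRY4. TGANTCA was in CASP14 and in no other of 6 matched genes among the 8 markers described next. Motifs were also found outside the group they were counted in. GGCGCC was in SPRY4, GGAATG in DKK1 and GDF15, and CCGGAA in S100A9 and DKK1. A match describes letters only and was not read as a binding site.

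The positions of the 8 markers follow GENCODE release 29 on GRCh38, which starts CASP14 upstream of the RefSeq start used for its promoter, so the stretch printed above runs into the GENCODE gene. PTGS1 (NCBI gene 5742) lies at chr9:122370530-122395703 on the plus strand. TNFRSF1B (NCBI gene 7133) lies at chr1:12167003-12209228 on the plus strand. S100A9 (NCBI gene 6280) lies at chr1:153357854-153361027 on the plus strand. CASP14 (NCBI gene 23581) lies at chr19:15049384-15058293 on the plus strand. UNC5B (NCBI gene 219699) lies at chr10:71212570-71302864 on the plus strand. GDF15 (NCBI gene 9518) lies at chr19:18374731-18389176 on the plus strand. CYR61 (NCBI gene 3491) lies at chr1:85580761-85583962 on the plus strand. DKK1 (NCBI gene 22943) lies at chr10:52314296-52318042 on the plus strand.

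The gene with the smallest adjusted p among the markers of the resistant line was PTGS1, which encodes cyclooxygenase 1, the enzyme that opens prostaglandin synthesis. PTGS1 had 114, 131 and 127 counts in parental cells and 2292, 2022 and 2261 in resistant cells. Every resistant library was more than an order of magnitude above every parental one. Mean normalized CPM rose from 6.83 ± 0.88 (SD, n = 3) to 130 ± 6.0 (SD, n = 3), a log2 fold change of 4.25 ± 0.27 (SE) with an adjusted p of 0.000539 by edgeR's quasi-likelihood test. PTGS1 was the only one called of 17 tested among 32 prostaglandin and eicosanoid genes, whose median log2 fold change was -0.41 against -0.16 for all genes. After the correction 3 of the list rose and 2 fell, at a median of 0.10.

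TNFRSF1B, which encodes TNF receptor 2, showed the largest log2 fold change among the markers. It had 17, 17 and 11 counts in parental cells and 799, 880 and 843 in resistant cells. The parental libraries were close to the bottom of the counted range and the resistant libraries lay close to each other. The log2 fold change was 5.92 ± 0.40 (edgeR adjusted p = 0.000616), from 0.823 ± 0.193 to 50.1 ± 6.2 CPM (SD, n = 3 per line). TNFRSF9, the receptor also called 4-1BB, had 5, 7 and 9 counts in parental cells and 54, 23 and 42 in resistant cells (2.57 ± 0.52, edgeR adjusted p = 0.0463). TNFRSF1B and TNFRSF9 were the 2 genes called of 15 tested TNF family receptors. None of the 17 NF-kB target genes tested was called, at a median log2 fold change of 0.36. After the correction 4 receptors rose and 1 fell, and 1 NF-kB target rose, at a median of 0.06 for the targets. The call of TNFRSF9 was lost without MHCC97L 3 (adjusted p = 0.141) and without MHCC97L-Src 1, 2 or 3 (0.173, 0.0972 and 0.16), and with the correction without the same libraries (0.0529, 0.0912, 0.0592 and 0.0629).

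S100A9 and S100A8 encode the chains of calprotectin, a calcium-binding protein best known from neutrophils and stressed epithelium. S100A9 had 15, 13 and 12 counts in parental cells and 628, 602 and 688 in resistant cells, a log2 fold change of 5.68 ± 0.39 (edgeR adjusted p = 0.000616). S100A8 had 5, 6 and 3 counts against 59, 54 and 38, a log2 fold change of 3.52 ± 0.53 (edgeR adjusted p = 0.018). Both chains were therefore near the floor of 3 counts in parental cells, S100A8 more so than S100A9, and the lines did not overlap in either. In FPKM, which allows genes to be compared, MHCC97L-Src held 46.1 to 52.4 of S100A9 and 1.80 to 3.05 of S100A8. These were the 2 calls among 13 tested S100 genes of 18 listed, whose median log2 fold change was 0.70. After the correction 4 rose and 2 fell, at a median of 0.25. Without MHCC97L 3 the adjusted p of S100A8 was 0.0971, and without any one MHCC97L-Src library it was 0.0528 to 0.0619.

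CASP14 encodes caspase 14, a protease of cornifying keratinocytes. Its counts were 210, 121 and 119 in MHCC97L and 7431, 7978 and 4417 in MHCC97L-Src, and in FPKM it reached 46.8 to 85.1 in the resistant line against 1.24 to 2.27 in the parental one. The third resistant library was lower than the other two but far above every parental library. The log2 fold change was 5.61 ± 0.40 (edgeR adjusted p = 0.000682). Of 23 listed cornification and barrier genes 15 had no count in any library, 5 were tested and CASP14 was the single call, while 2 others fell after the correction. Among 11 tested caspases it was also the single call, with a median log2 fold change of -0.53 for the family, or 0.17 after the correction.

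UNC5B encodes a netrin receptor of axon guidance and endothelial branching. It had 290, 439 and 410 counts in parental cells and 3372, 3270 and 3354 in resistant cells, and rose with a log2 fold change of 3.24 ± 0.28 (edgeR adjusted p = 0.00239). The 3 resistant libraries were almost equal. UNC5B was the 1 call among 26 tested genes of the netrin, ephrin, semaphorin and SLIT families (3.8%, against 2.13% of all genes). After the correction 5 of these genes rose and 2 fell. The KEGG pathway of axon guidance had 5 rises and no fall among 124 genes tested (13 and 6 after the correction), adding FYN, CXCR4, SEMA6B and SRGAP3. The uncorrected calls were 4.0% of the pathway, against 2.6% of all tested genes with a KEGG pathway. CXCR4, a chemokine receptor, had 1426, 1445 and 992 counts against 3899, 2810 and 5056 (1.70 ± 0.26, edgeR adjusted p = 0.019). SEMA6B had 153, 226 and 210 counts against 602, 701 and 575, and SRGAP3 had 58, 72 and 52 against 321, 211 and 367. The resistant libraries lay above the parental ones in each of these genes. Outside UNC5B these calls were lost without MHCC97L 3 or without any one MHCC97L-Src library, with adjusted p of up to 0.20 for SEMA6B. With the correction CXCR4 was also lost without MHCC97L-Src 1 (0.056).

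GDF15, a secreted cytokine of the TGF-beta superfamily that rises in cellular stress, had 214, 255 and 250 counts in parental cells and 1390, 1699 and 1580 in resistant cells. The groups were well separated, with a log2 fold change of 2.81 ± 0.28 (edgeR adjusted p = 0.00597) that was 2.19 after the GC and length correction. GDF15 was the 1 rise among 24 tested genes of the integrated stress and unfolded protein responses before the correction, and after it 7 rose and 3 fell, at medians of 0.22 and 0.38. The 1 fall before the correction was SLC7A11, the cystine transporter, with 1370, 371 and 917 counts against 102, 93 and 116 (-2.96 ± 0.47, edgeR adjusted p = 0.0199). SLC7A11 has a GC content of 35.4% and was highest in MHCC97L 1, and its log2 fold change was -1.55 after the correction (adjusted p = 0.00821). Its uncorrected call was lost without MHCC97L 3 (0.0823) and without any one MHCC97L-Src library (0.0655 to 0.0909), and with the correction it was lost without MHCC97L-Src 1 (0.0616).

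**Figure D2:**
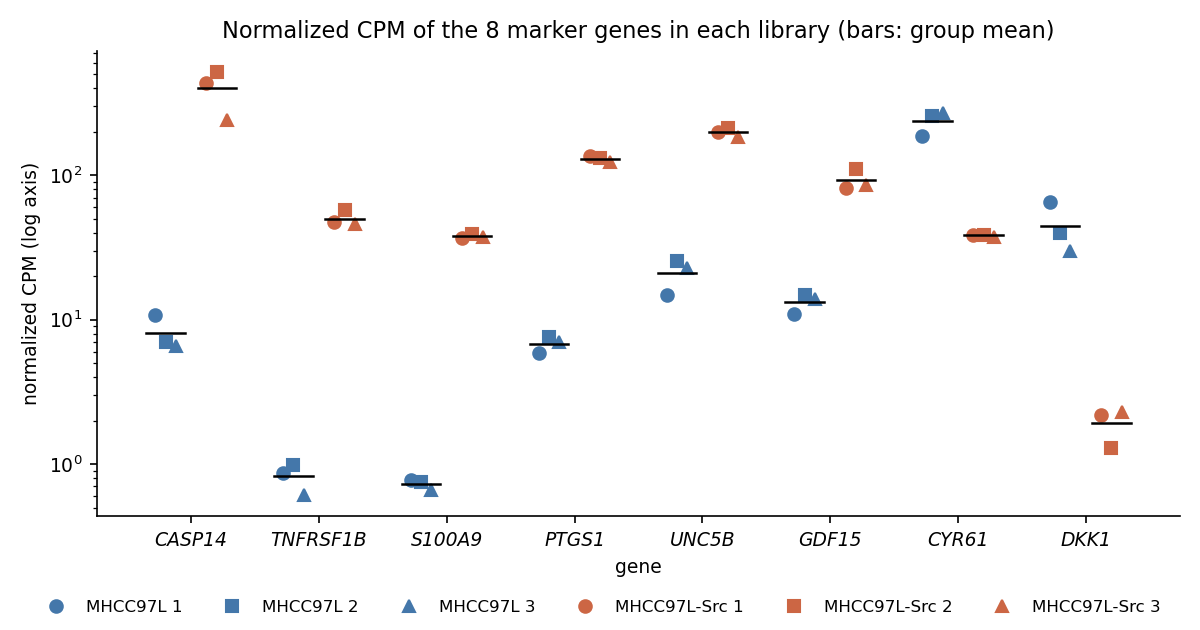
Normalized CPM of the 8 marker genes in each library on a log axis, with a point for each of the 3 MHCC97L and 3 MHCC97L-Src libraries and a bar at each mean. In all 8 genes the lines are apart: PTGS1, TNFRSF1B, S100A9, CASP14, UNC5B and GDF15 lie higher in MHCC97L-Src, and CYR61 and DKK1 lie lower. The genes were chosen as markers with earlier results of these data known. The lines did not overlap in 29.8% of all genes tested.

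Among the lists of genes by function, the most uniform set of rises was that of ERK output genes. ERK activity itself was not measured in these libraries. Of 15 ERK output genes 14 were tested, 8 rose and none fell, and their median log2 fold change was 1.86. After the GC and length correction 11 rose and none fell, at a median of 1.92. MHCC97L-Src lay above MHCC97L without overlap in 12 of the 14, against 17.6% of all genes tested. The list was chosen with earlier results known, so these counts describe it and are not independent evidence for its direction.

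ETV4 and ETV5 are the ETS factors of the list. ETV4 had 281, 543 and 534 counts in parental cells and 2071, 2072 and 2249 in resistant cells, and ETV5 had 486, 633 and 456 against 2335, 1729 and 2567. ETV4 rose by 2.33 ± 0.33 on the log2 scale (edgeR adjusted p = 0.0153) and ETV5 by 2.17 ± 0.27 (0.00921). In FPKM the resistant libraries held 24.4 to 27.1 of ETV4 and 19.1 to 27.6 of ETV5, so the factors overlapped in level. IER3, an early response gene, was well above them at 280 to 332 FPKM in MHCC97L-Src.

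The phosphatases of the list, which switch off ERK and related kinases, rose as well. DUSP4 had 225, 288 and 254 counts in parental cells and 1190, 1189 and 1295 in resistant cells (2.36 ± 0.28, edgeR adjusted p = 0.00822). DUSP5 had 77, 185 and 151 against 598, 485 and 650 (2.15 ± 0.43, 0.0441). DUSP6, the phosphatase most specific for ERK, had 10, 11 and 2 against 103, 34 and 186 (3.85 ± 0.79, 0.0471). The resistant libraries of DUSP6 spread over a wider range than those of DUSP4, but none reached down to the parental counts. Outside the list the family was not uniform. DUSP2, another phosphatase of this family, moved the other way, from 493, 719 and 693 counts to 108, 130 and 128 (-2.27 ± 0.36, edgeR adjusted p = 0.0208). DUSP1 and DUSP9, named after their values were seen, were called only after the correction, DUSP1 as a rise and DUSP9 as a fall. The call of DUSP2 was lost without MHCC97L 3 (0.0971) and without any one MHCC97L-Src library (0.0966 to 0.135).

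Sprouty proteins restrain signalling from receptor tyrosine kinases to ERK. SPRY1 had 24, 23 and 19 counts in parental cells and 128, 71 and 134 in resistant cells (2.42 ± 0.45, edgeR adjusted p = 0.0344). SPRY4 had 35, 39 and 24 against 191, 122 and 227 (2.55 ± 0.45, 0.03). In both genes MHCC97L-Src 2 was the lowest of the resistant libraries and still above all parental ones. IER3 had 1567, 2165 and 2408 counts against 5629, 5981 and 5264 (1.57 ± 0.27, 0.0241). PHLDA1, SPRED2 and SPRY2, named after their values were seen, had log2 fold changes of 1.49, 1.03 and 0.88 that did not pass the test (adjusted p = 0.0769, 0.0932 and 0.19) and passed it after the correction (0.0407, 0.0131 and 0.0245). The 8 rises of the list became 9 without MHCC97L 1, 10 without MHCC97L 2, 3 without MHCC97L-Src 1, 2 without MHCC97L-Src 2 and none without MHCC97L 3 or MHCC97L-Src 3. DUSP6 was lost with the correction without MHCC97L-Src 1 (0.0552). With the correction, 7 to 11 rose whichever library was left out.

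Immediate early genes were less uniform. FOS, a partner in the AP-1 factor, had 817, 909 and 936 counts in parental cells and 2168, 1760 and 1987 in resistant cells (1.26 ± 0.23, edgeR adjusted p = 0.0325). It was the 1 call among 14 tested AP-1 and immediate early genes, at a median log2 fold change of 0.12. After the correction 2 rose and 3 fell, at a median of -0.05. FOS lost its call with the correction that kept the TMM scale (0.0593) and with the replicate number as a block in the corrected fit (0.0546). In the KEGG MAPK pathway 8 genes rose and 1 fell among 215 tested, against 19 and 16 after the correction. The uncorrected calls were 4.2% of the pathway, against 2.6% of all tested genes with a KEGG pathway. ARRB1, which encodes beta-arrestin 1, had 1138, 1458 and 1391 counts against 3520, 2941 and 3689 (1.45 ± 0.23, 0.0205). TGFB3 had 314, 365 and 302 against 860, 680 and 879 (1.40 ± 0.28, 0.0453). The lines did not overlap in FOS, ARRB1 or TGFB3, and each of the 3 calls was lost without MHCC97L 3 or any one MHCC97L-Src library, with adjusted p of up to 0.192 for FOS, 0.124 for ARRB1 and 0.207 for TGFB3.

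The drug's own targets were expressed at low to moderate level. SRC had 25, 37 and 41 counts in parental cells and 31, 25 and 14 in resistant cells. The lines overlapped, and the log2 fold change of -0.44 ± 0.50 did not pass the test (edgeR adjusted p = 0.569). FYN had 259, 194 and 157 counts against 719, 550 and 882 and rose with a log2 fold change of 1.92 ± 0.33 (0.0245), or 2.14 after the correction (0.000648). FYN was the 1 call among 11 tested SRC family kinases and regulators of 16 listed (9.1%, against 2.13% of all genes). Its uncorrected call was lost without MHCC97L 3 (0.113) and without MHCC97L-Src 1, 2 or 3 (0.133, 0.0943 and 0.151), and the corrected call held in each case.

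YES1 and LYN had enough counts to test and did not pass. YES1 had 800, 64 and 333 counts in parental cells and 106, 113 and 83 in resistant cells, and its log2 fold change went from -1.80 (edgeR adjusted p = 0.152) to -0.18 with the correction. LYN had 560, 323 and 188 against 244, 135 and 411, with -0.35 (0.656) before the correction and 0.23 after it. For both kinases the parental libraries differed among themselves by more than the lines did. LCK had at most 8 counts in any library and was not tested.

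Genes of the adhesion machinery downstream of SRC are read against all genes tested, of which 2.13% were called before the correction and 10.6% after it. NEDD9, a scaffold phosphorylated by SRC and focal adhesion kinase, had 227, 248 and 193 counts in parental cells and 35, 40 and 50 in resistant cells. The lines were far apart, and the log2 fold change was -2.31 ± 0.41 (edgeR adjusted p = 0.0303). It was the 1 fall among 19 tested focal adhesion genes and SRC substrates, of which 6 fell and 1 rose after the correction. None of 15 tested integrin chains was called before the correction, while 3 rose and 2 fell after it. ITGA5 and ITGA3, the most counted integrins, had log2 fold changes of 0.38 (0.351) and 0.15 (0.724), and the value of ITGA3 was -0.14 after the correction. Without MHCC97L 3 or any one MHCC97L-Src library NEDD9 was not called, with adjusted p of 0.108 to 0.19, and with the correction it was also lost without MHCC97L 3, MHCC97L-Src 1 and MHCC97L-Src 3 (0.0581, 0.0965 and 0.0804).

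Among ligands and receptors of growth factors, NRG2, which encodes the ERBB ligand neuregulin 2, was the 1 call of 31 genes tested, against 5 rises and 4 falls after the correction. It had no count in any MHCC97L library and 21, 18 and 19 counts in MHCC97L-Src (edgeR adjusted p = 0.0158). Against a floor of 3 counts per library it was at least 6.97-fold higher. The call was lost without MHCC97L 3 (0.0646) and without MHCC97L-Src 3 (0.0611), and with the correction without MHCC97L-Src 1 (0.0613) and with the replicate number as a block (0.0959). AXL, a receptor kinase named after its values were seen, had 1272, 1678 and 1445 counts against 671, 477 and 657, and its log2 fold change of -1.19 (0.0614) passed the test after the correction (0.00285). PGF, which encodes placental growth factor, had 22, 29 and 19 counts against 168, 191 and 156 and rose with a log2 fold change of 2.99 ± 0.46 (0.0185). Without MHCC97L 3 its adjusted p was 0.103, and without an MHCC97L-Src library it was 0.0685 to 0.0823.

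The clearest set of falls was that of genes that respond to TGF-beta and BMPs. Of 18 listed genes 16 were tested, 8 fell and none rose, at a median log2 fold change of -1.77. After the correction 10 fell, at a median of -1.85. MHCC97L-Src lay below MHCC97L without overlap in 10 of the 16, against 12.2% of all genes tested. The list was chosen with earlier results known, which holds for every list described here.

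The ID genes encode proteins that block basic helix-loop-helix factors and are direct BMP targets. ID1 had 4795, 7532 and 7366 counts in parental cells and 1058, 1431 and 1277 in resistant cells (-2.28 ± 0.30, edgeR adjusted p = 0.0118). ID2 had 920, 850 and 480 against 27, 17 and 51 (-4.48 ± 0.50, 0.00693). ID3 had 10268, 17081 and 19297 against 2272, 2706 and 2145 (-2.60 ± 0.33, 0.0113). The lines did not overlap in any of the 3 genes. In FPKM the parental order was ID3 at 512 to 864, ID1 at 250 to 380 and ID2 at 18.4 to 34.7, and the same order without overlap was seen in MHCC97L-Src at 104 to 129, 55.7 to 75.3 and 0.68 to 1.89. ID2 had the largest fold change of the 3 and kept its call whichever library was left out. ID1 and ID3 lost it without MHCC97L 3 (0.0608 and 0.0536) and without MHCC97L-Src 3 (0.0619 and 0.0611).

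SMAD6, an inhibitory SMAD, had 875, 1161 and 1139 counts in parental cells and 244, 228 and 285 in resistant cells (-1.97 ± 0.29, edgeR adjusted p = 0.0175). SMAD7, its relative, had 316, 362 and 398 against 129, 96 and 114 and did not pass before the correction (-1.56, 0.0737), though it did after it (0.00279). PMEPA1, a TGF-beta target that dampens SMAD signalling, had 1734, 2157 and 1746 against 413, 354 and 395 (-2.17 ± 0.26, 0.00822). In all 3 genes the highest resistant library was below the lowest parental one. SKIL, which encodes the SMAD co-repressor SnoN, had 801, 95 and 373 against 28, 37 and 35 (-3.49 ± 0.71, 0.0467). It has a GC content of 33.4%, its parental counts followed the GC order of the libraries, and its log2 fold change was -1.84 after the correction (0.0103). PMEPA1 lost its call without MHCC97L-Src 2 (0.0535) and MHCC97L-Src 3 (0.0611).

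CYR61 and CTGF, secreted matricellular proteins that answer to both YAP and TGF-beta, fell together. CYR61 had 3607, 4451 and 4872 counts in parental cells and 655, 594 and 689 in resistant cells (-2.64 ± 0.24, edgeR adjusted p = 0.0033). CTGF had 478, 325 and 330 against 51, 25 and 70 (-2.86 ± 0.46, 0.0214). The parental level of CYR61, 83.0 to 116.5 FPKM, was above that of CTGF, 6.08 to 9.28 FPKM, in every library. The 8 falls of the TGF-beta and BMP list became 10 without MHCC97L 1 or 2, 3 without MHCC97L 3, and 5, 4 and 2 without MHCC97L-Src 1, 2 and 3. With the correction, 7 to 10 fell with 1 library left out. Among the 64 genes tested of the KEGG TGF-beta pathway, 5 fell and 2 rose, against 8 and 3 after the correction. The uncorrected rises were the ligand genes TGFB3, described above, and INHBE, which encodes the activin beta-E chain, with 25, 60 and 41 counts against 248, 265 and 234 (2.66 ± 0.49, 0.0344), a call lost without MHCC97L 3 (0.137) or any one MHCC97L-Src library (0.114 to 0.126). GREM1, a secreted BMP antagonist, had 1124, 147 and 310 counts against 29, 17 and 58 (-3.79 ± 0.79, 0.0496), or -2.24 after the correction (0.0145). Without MHCC97L 3 the adjusted p was 0.0983 for GREM1, 0.117 for SKIL and 0.085 for SMAD6, and without any one MHCC97L-Src library it was 0.0945 to 0.167 for these genes. With the correction SKIL was lost without MHCC97L-Src 1 (0.0727) and MHCC97L-Src 3 (0.0614), and GREM1 without MHCC97L-Src 1 (0.0909) and MHCC97L-Src 2 (0.0555).

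The YAP and TAZ list as a whole moved less than its best known members. Of 28 genes 27 were tested, 3 fell and none rose, and the median log2 fold change was -0.82. After the correction 8 fell and the median was -0.39. MHCC97L-Src lay below without overlap in 8 of the 27 and above in 4, against 12.2% and 17.6% of all genes tested. AMOTL2, which encodes a scaffold that binds YAP, had 2094, 2739 and 3112 counts against 488, 452 and 538 (-2.33 ± 0.26, edgeR adjusted p = 0.00693), a call lost without MHCC97L-Src 3 (0.0514). CTGF was lost without MHCC97L 3 (0.0823) and without MHCC97L-Src 1, 2 or 3 (0.108, 0.0997 and 0.0854). YAP1 itself had 3734, 756 and 931 counts against 617, 368 and 812, and the lines overlapped (-1.46, 0.137). The 3 falls became 6 without MHCC97L 1, 10 without MHCC97L 2, 2 without MHCC97L 3, MHCC97L-Src 1 or MHCC97L-Src 2, and 1 without MHCC97L-Src 3. With the correction 6 to 10 fell with a library left out.

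Falls included single genes of actin, myosin and an actin-binding protein, while the KEGG pathway of the actin cytoskeleton had 3 rises and 2 falls among 162 genes tested, or 9 and 17 after the correction. TAGLN, the actin-binding protein transgelin, had 645, 1047 and 1280 counts in parental cells and 52, 64 and 77 in resistant cells (-3.85 ± 0.41, edgeR adjusted p = 0.00611). MYL9, the regulatory light chain of smooth muscle myosin, had 5438, 9015 and 9720 against 1798, 1980 and 1497 (-2.08 ± 0.32, 0.0184). ACTC1, a muscle actin, had 122, 141 and 110 against 5, 8 and 12 (-3.78 ± 0.51, 0.0128), and reads of actin genes can be shared between near-identical copies, so this value is uncertain. ACTG2, another muscle actin named after its values were seen, had 40, 60 and 91 counts against 4, 0 and 1 (0.0236) and is uncertain likewise. Every resistant library was below every parental library in these genes. MYO1G, a short-tailed myosin, had 109, 138 and 151 counts against 20, 18 and 10 (-2.92 ± 0.50, 0.0255). TAGLN held with any library left out, whereas without MHCC97L 3 the adjusted p was 0.0608 for ACTC1 and 0.109 for MYO1G. Without MHCC97L-Src 1 it was 0.0685 for ACTC1 and 0.114 for MYO1G, and for MYL9 the highest value with a library left out was 0.0909. With the correction, ACTC1 was also lost without MHCC97L-Src 1 (0.068) and MHCC97L-Src 3 (0.0563).

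KANK4, which encodes a scaffold of the KANK family at the edge of focal adhesions, came close to being lost. It had 274, 241 and 202 counts in parental cells and 2, 3 and 0 in resistant cells (edgeR adjusted p = 0.00693). Over the summed counts, 717 against 5, the parental line was 133-fold higher with an exact 95% interval of 56.6 to 410, which covers counting error only. HKDC1, a hexokinase-like enzyme, had 38, 31 and 30 counts in parental cells and none in resistant cells (0.0128), and was at least 10.1-fold lower against a floor of 3 counts per library. The call of HKDC1 was lost without MHCC97L 3 (0.0608) and without MHCC97L-Src 3 (0.0529). SLC12A8, a solute carrier, fell with little spread within either line. It went from 6634, 8192 and 7471 counts to 896, 810 and 808 (-3.04 ± 0.24, 0.00128).

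DKK1, a secreted inhibitor of Wnt receptors, had 1259, 688 and 536 counts in parental cells and 37, 20 and 42 in resistant cells. The parental counts were uneven, highest in MHCC97L 1, and all lay far above the resistant ones. The log2 fold change was -4.53 ± 0.47 (edgeR adjusted p = 0.00597) and -3.95 after the correction. DKK1 was the 1 call among 40 tested genes of the Wnt pathway, whose median log2 fold change was 0.11. That is 2.5% of the list, close to the 2.13% called among all genes tested. None of 22 tested Wnt ligands and receptors and none of 12 core and feedback genes was called before the correction, and after it 3 ligands and receptors rose and 3 fell. WNT6 had 136, 188 and 183 counts against 355, 475 and 443 (1.44, 0.0857), FZD8 had 23, 37 and 44 against 92, 98 and 87 (1.52, 0.106), and AXIN2 had 14, 11 and 3 against 16, 23 and 44 (1.65, 0.134). In these 3 genes, named after their values were seen, MHCC97L-Src lay above MHCC97L, and WNT6 and FZD8 but not AXIN2 passed the test after the correction (0.0261, 0.0282 and 0.149). CTNNB1, which encodes beta-catenin, had 3985, 1523 and 1019 counts against 814, 373 and 1640 (-1.11, 0.216) with overlap between the lines.

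ABCG1, an exporter of cholesterol that is a target of liver X receptors (LXR), had 14, 19 and 31 counts in parental cells and 424, 431 and 578 in resistant cells. Its log2 fold change was 4.57 ± 0.48 (edgeR adjusted p = 0.00597) and 4.40 after the correction, and its level in MHCC97L-Src was 1.68 to 2.2 FPKM. ABCA3, a lipid transporter of the same superfamily, was more abundant and rose less, with 429, 623 and 579 counts against 1277, 1383 and 1311 (1.39 ± 0.28, 0.0467). These were the 2 calls among 14 tested ABC transporters, at a median log2 fold change of 0.05, and after the correction 2 others fell and the median was -0.21. SREBF1, the lipid synthesis factor SREBP1, had 2163, 3475 and 3448 counts against 6768, 7523 and 7024 (1.34 ± 0.28, 0.0498). With ABCG1 it made 2 rises among 9 tested LXR target genes, whose median was 1.08, and 4 rose after the correction. Cholesterol synthesis genes held no call among 23 tested (2 rises after the correction), at a median of 0.20, with SREBF2 at 0.59 (0.172). ABCG1 kept its call with any library left out, but ABCA3 and SREBF1 lost theirs without MHCC97L 3 (0.145 and 0.137) and without any one MHCC97L-Src library, with adjusted p of up to 0.205 and 0.195.

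CA9, the cell surface carbonic anhydrase that marks hypoxic tumour cells, had 111, 201 and 214 counts in parental cells and 4263, 5942 and 2080 in resistant cells. The resistant libraries were uneven, the third again being the lowest, and all were well above the parental ones (4.68 ± 0.52, edgeR adjusted p = 0.00693). EGLN3, an oxygen sensor induced by hypoxia, had 103, 83 and 77 counts against 424, 448 and 349 (2.35 ± 0.38, 0.0214). BNIP3, a mitophagy receptor, had 1114, 988 and 793 against 2333, 2160 and 1783 (1.24 ± 0.25, 0.0471). Of 24 tested genes of hypoxia and glycolysis, 3 rose and HKDC1 fell, at a median log2 fold change of 0.35, and after the correction 6 rose and 1 fell. NDRG1, named after its values were seen, had 3160, 4863 and 4754 counts against 12072, 13928 and 8500 (1.56, 0.0501), and was called after the correction (0.0274). CA9 kept its call with any library left out, whereas EGLN3 and BNIP3 lost theirs without MHCC97L 3 (0.11 and 0.15) and without any one MHCC97L-Src library, with adjusted p of up to 0.113 and 0.203. With the correction BNIP3 was lost without MHCC97L 3 (0.069), MHCC97L-Src 1 (0.0898) and MHCC97L-Src 2 (0.0645), with the TMM scale kept (0.0585) and with the replicate number as a block (0.0592).

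HLA-B, a class I gene that presents peptides to T cells, was higher in MHCC97L-Src. It had 2416, 3507 and 3792 counts against 10110, 12090 and 9731 (1.83 ± 0.29, edgeR adjusted p = 0.0195). HLA-C, named after its values were seen, had 4068, 6166 and 6134 against 11853, 13632 and 10012 (1.23, 0.0769), and was called after the correction (0.70, 0.00891). These genes are close in sequence, and how the counting shared their reads is not given in the sources used here, so the split between them is uncertain. OAS1, an interferon-induced sensor of RNA, had 80, 81 and 55 counts against 258, 235 and 347 (2.06 ± 0.40, 0.0402). Of 24 tested genes of the interferon response and HLA class I, 3 rose and none fell at a median of 0.44, and after the correction 7 rose and 1 fell. ISG20, an interferon-induced exonuclease, had 10, 22 and 17 counts against 337, 383 and 239 (4.40 ± 0.54, 0.00921). The resistant libraries lay above the parental ones in each of these genes. HLA-B and OAS1 were called neither without MHCC97L 3 (0.0823 and 0.15) nor without any one MHCC97L-Src library, and ISG20 lost its call without MHCC97L 3 (0.0608).

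Of genes that mark epithelial or mesenchymal state, CLDN4 rose and KRT7, FN1 and SNAI2 fell among 25 tested, and after the correction 3 rose and 3 fell. CLDN4, which encodes a claudin of tight junctions, had 29, 48 and 29 counts in parental cells and 435, 490 and 451 in resistant cells (3.80 ± 0.44, edgeR adjusted p = 0.00768). KRT7, an epithelial keratin, had 37090, 59255 and 68121 against 13141, 15999 and 12816 (-1.86 ± 0.33, 0.03). SNAI2, a repressor of E-cadherin, had 344, 192 and 142 against 27, 20 and 47 (-2.74 ± 0.52, 0.0368). The lines did not overlap in these genes, and epithelial members therefore moved in both directions. FN1, which encodes fibronectin, had 8991, 5894 and 6152 against 2976, 2629 and 2872, and its call (-1.19 ± 0.22, 0.0364) was lost with the correction (-0.34, 0.572). CDH1, which encodes E-cadherin and was named after its values were seen, was near the floor in both lines, with 19, 19 and 15 counts against 5, 2 and 4 (-2.13, 0.0769), and was called as a fall after the correction (-1.92, 0.0295). CLDN4 lost its call without MHCC97L 3 (0.0568), and KRT7, SNAI2 and FN1 lost theirs without MHCC97L 3 (0.115, 0.0858 and 0.11) and without any one MHCC97L-Src library, with values of up to 0.151, 0.16 and 0.192. With the correction SNAI2 was lost without any one MHCC97L-Src library (0.078 to 0.135).

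Matrix genes also moved both ways, with 1 rise and 2 falls among 30 tested, FN1 being one of the falls, against 5 and 6 after the correction. COL6A2, a chain of collagen VI, had 183, 303 and 287 counts in parental cells and 804, 980 and 740 in resistant cells (1.82 ± 0.36, edgeR adjusted p = 0.0421). THBS1, which encodes thrombospondin 1, had 1784, 881 and 791 against 224, 154 and 278 (-2.28 ± 0.38, 0.0226). Neither gene overlapped between lines. COL5A1 and COL7A1, named after their values were seen, had 14017, 19770 and 19646 counts against 7383, 7538 and 6755 and 9554, 9506 and 10304 against 4596, 4730 and 4538, with adjusted p of 0.0591 and 0.0579 before the correction and 0.00209 and 0.00371 after it. Of 18 tested metalloproteinases and inhibitors none rose and 1 fell before the correction, and 4 rose and 1 fell after it. SULF2, a sulfatase that edits heparan sulfate at the cell surface, had 163, 191 and 102 counts against 1173, 933 and 1391 (3.03 ± 0.34, 0.00693), and SNED1, a matrix protein, had 57, 40 and 53 against 368, 451 and 444 (3.20 ± 0.39, 0.00921). SULF2 held with any library left out, SNED1 lost its call without MHCC97L 3 (0.0608) and MHCC97L-Src 3 (0.0534), and COL6A2 and THBS1 lost theirs without MHCC97L 3 (0.13 and 0.0614) or any one MHCC97L-Src library (up to 0.184 and 0.105).

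Several receptors that are usually studied in other cell types rose from a low level. NTSR1, the neurotensin receptor, had 4, 5 and 4 counts in parental cells and 100, 109 and 138 in resistant cells (4.80 ± 0.50, edgeR adjusted p = 0.00597). BDKRB2, the bradykinin B2 receptor, had 71, 37 and 36 against 450, 281 and 597 (3.31 ± 0.46, 0.0139). CDH5, the cadherin of endothelial junctions, had 17, 28 and 22 against 188, 196 and 236 (3.30 ± 0.46, 0.0139). The resistant libraries were above the parental ones in all 3 genes. CD14, a co-receptor of monocytes, had 16, 18 and 20 against 97, 104 and 100 (2.58 ± 0.43, 0.0236), and the Notch ligand DLL4 had 18, 14 and 19 against 91, 69 and 126 (2.57 ± 0.45, 0.0261). DLL4 was the 1 call among 12 tested Notch pathway genes, of which 3 rose after the correction. CDH5 and CD14 were the 2 calls among 10 tested of 20 markers of fibroblast, endothelial and blood cells, 7 of which had no count, and after the correction 2 others fell.

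Values for the rest of those marker lists stood beside these genes. The 6 endothelial markers summed to 2.21 to 2.72 CPM in MHCC97L and 12.2 to 15 CPM in MHCC97L-Src, CDH5 supplying 82.3% of the counts, and KDR was at 0 in all libraries. The 8 blood markers summed to 54.5 to 92.8 CPM against 76.8 to 110 CPM, CD68 supplying 87.0%, and PTPRC, CD3E and LYZ were at 0. The 6 fibroblast markers summed to 527 to 711 CPM against 373 to 468 CPM, THY1 supplying 79.3%. In libraries of whole cultures, fewer cells of a kind and less RNA per cell cannot be told apart. Without MHCC97L 3 the adjusted p rose to 0.0504 for NTSR1, 0.0765 for BDKRB2, 0.0823 for CDH5, 0.115 for CD14 and 0.123 for DLL4. Without an MHCC97L-Src library it reached 0.0713 for BDKRB2, 0.0686 for CDH5, 0.109 for CD14 and 0.134 for DLL4. With the correction DLL4 was lost without MHCC97L 3 (0.058), MHCC97L-Src 1 (0.0693) and MHCC97L-Src 3 (0.0531).

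Further large falls included genes whose parental counts were uneven. OLR1, a receptor for oxidized lipoprotein, had 4359, 475 and 890 counts in parental cells and 52, 25 and 72 in resistant cells (-5.12 ± 0.84, edgeR adjusted p = 0.0225; -3.76 after the correction). GDA, which encodes guanine deaminase, had 2073, 459 and 764 against 106, 54 and 131 (-3.37 ± 0.58, 0.0246; -2.01 after the correction). HSP90AA1, the inducible HSP90 chaperone, had 15063, 2230 and 11529 against 1073, 1094 and 950 (-3.05 ± 0.58, 0.0368). All 3 were highest in MHCC97L 1, and all resistant libraries were below the parental ones. The call of HSP90AA1 was lost with 4 of the 6 libraries left out in turn, at 0.11 without MHCC97L 3 and 0.055, 0.0931 and 0.133 without MHCC97L-Src 1, 2 and 3. With the correction it was 0.0477 with all libraries and was lost in 5 of 6 cases. OLR1 and GDA lost their calls without MHCC97L 3 (0.0568 and 0.0737), MHCC97L-Src 2 (0.0615 and 0.0859) and MHCC97L-Src 3 (0.0774 and 0.0877).

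Other falls had parental counts that differed less between libraries than those of OLR1, GDA and HSP90AA1. CD82, a tetraspanin known as a suppressor of metastasis, had 514, 754 and 783 counts in parental cells and 104, 105 and 99 in resistant cells (-2.63 ± 0.37, edgeR adjusted p = 0.014). AHRR, the repressor of the aryl hydrocarbon receptor, had 490, 647 and 654 against 95, 94 and 80 (-2.62 ± 0.37, 0.0146). ALPP, which encodes placental alkaline phosphatase, had 415, 617 and 884 against 58, 60 and 41 (-3.47 ± 0.46, 0.0124), and its close relatives make the assignment of its reads uncertain. The lines were far apart in each. SAMD11, a nuclear protein, had 152, 246 and 199 against 23, 23 and 19 (-3.08 ± 0.47, 0.0184). AHRR was the 1 call among 15 tested drug-metabolizing enzymes and regulators, of which 2 fell after the correction. Of 22 tested NRF2 targets and glutathione genes 2 fell, SLC7A11 and AKR1C1, at a median of -0.91, against 9 falls after the correction at a median of -0.61. AKR1C1, an aldo-keto reductase with near-identical relatives, had 934, 1175 and 1317 counts against 291, 253 and 373 (-1.81 ± 0.29, 0.0214), and its call was lost with the correction (-1.17, 0.205). Without MHCC97L 3 the adjusted p was 0.0793 for AHRR, 0.0614 for ALPP, 0.0823 for SAMD11 and 0.105 for AKR1C1, without MHCC97L-Src 3 it was 0.0909, 0.0634, 0.113 and 0.109, and for CD82 it reached 0.0877.

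The KEGG lists named a few more rises. SOCS3, a feedback inhibitor of cytokine receptors, had 973, 1471 and 1429 counts in parental cells and 4950, 5738 and 4795 in resistant cells (2.11 ± 0.28, edgeR adjusted p = 0.0124). C5AR1, the receptor of complement C5a, had 584, 651 and 524 against 1403, 1298 and 1595 (1.39 ± 0.24, 0.0283). CTSF, a lysosomal cathepsin, had 421, 619 and 533 against 1899, 2333 and 1957 (2.09 ± 0.29, 0.0139). The lines did not overlap in these genes. The pathway of cytokine and receptor interaction held 6 rises and no fall among 94 genes tested (12 and 5 after the correction), TNF signalling 4 and 1 among 90 (9 and 5), complement and coagulation 3 and 1 among 35 (12 and 3), and the lysosome, with CTSF, 2 and 1 among 108 (14 and 5). All genes with a KEGG pathway together held 86 rises and 34 falls among 4659 tested, or 295 and 262 after the correction. With a library left out the adjusted p reached 0.0618 for SOCS3, 0.167 for C5AR1 and 0.0754 for CTSF.

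For proliferation and repair genes the measure is the share of all genes tested that were called, 2.13% before the correction and 10.6% after it. At the first of these shares a short list may hold no call. None of 34 tested genes of the cell cycle and DNA replication was called, at a median log2 fold change of -0.43, or -0.23 after the correction, when 1 rose and 2 fell. MCM7 had 8151, 11779 and 12196 counts in parental cells and 12356, 13149 and 11915 in resistant cells (0.33, edgeR adjusted p = 0.412), and MCM2 had 6608, 10107 and 10705 against 11387, 12016 and 11387 (0.45, 0.286). None of 18 tested p53 target genes was called (1 rise and 1 fall after the correction), with CDKN1A, the cell cycle inhibitor p21, at 2127, 3533 and 3389 counts against 4660, 5667 and 4343 (0.81, 0.13) and TNFRSF10B at 0.35 (0.348). In the KEGG lists there was no call among 35 genes of DNA replication, 22 of mismatch repair, 43 of nucleotide excision repair, 63 of platinum drug resistance, 125 of mTOR signalling, 130 of the spliceosome or 127 of the ribosome. After the correction there was still none in replication and both repair pathways, but 2 rises and 2 falls in platinum drug resistance, 8 and 7 in mTOR signalling, none and 5 in the spliceosome, and 10 and 1 in the ribosome. Of the 127 ribosome genes, MHCC97L-Src lay above MHCC97L without overlap in 53 and below in 6. Among all genes tested these shares were 17.6% and 12.2%. The median log2 fold change of the ribosome genes was 0.36 before the correction and 0.40 after it. Of 17 tested BCL2 family genes BNIP3 was the 1 call, against 4 rises and 2 falls after the correction. None of 10 tested stem cell markers was called (1 rise and 2 falls after the correction), with CD24 at -0.87 (0.112) and CD44 at 0.53 (0.163), and none of 4 tested metallothioneins (1 rise and 1 fall after it), with MT2A at 0.03 (0.938) and MT1E at 0.10 (0.834) before the correction and -0.38 and -0.24 after it. A gene that did not pass the test at 3 libraries per line is not shown to be equal in both lines, since 3546 genes had an unadjusted p under 0.05 by the same edgeR test.

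**Figure D3:**
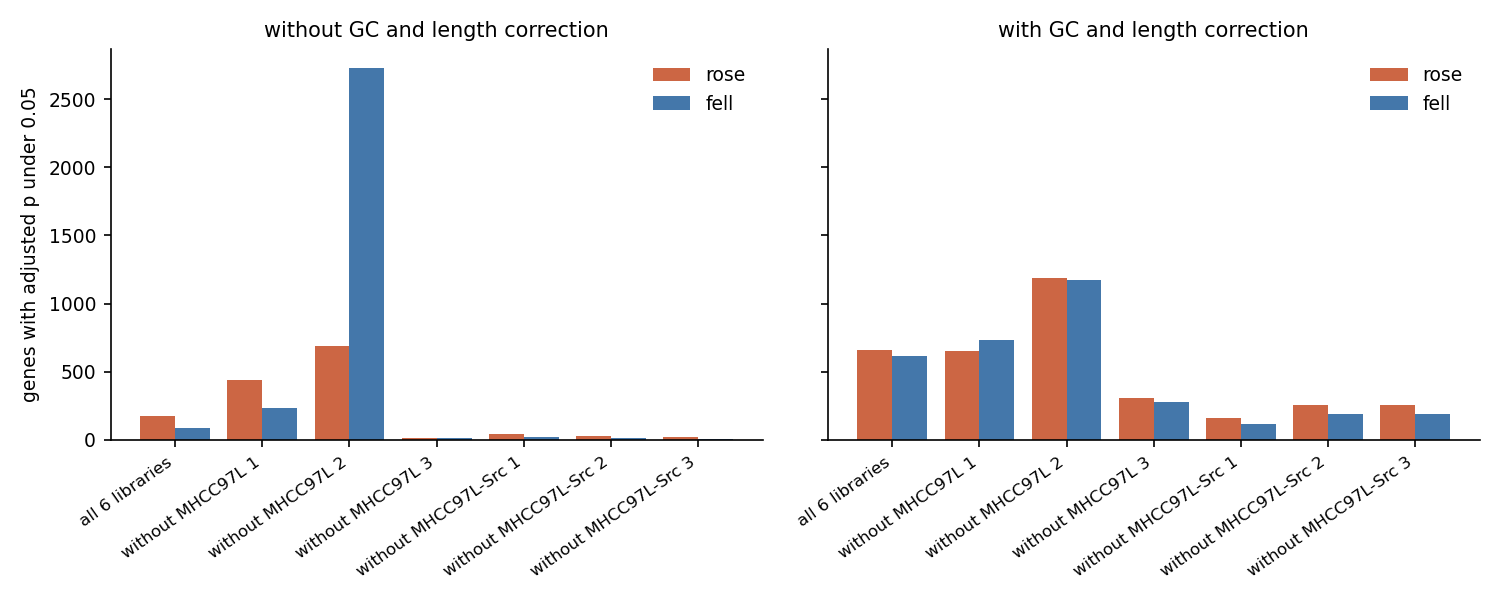
Numbers of genes that rose and fell at an adjusted p under 0.05 (vertical axis, 1 bar per direction) with all 6 libraries and with each library left out, in 1 panel without and 1 panel with the GC and length correction. Without the correction, 172 rises and 84 falls became 11 and 11 without MHCC97L 3 and 690 and 2729 without MHCC97L 2.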

How the data were processed

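RNA of MHCC97L and MHCC97L-Src was sequenced in 3 stranded poly(A) libraries per line. The authors deposited raw read counts per gene, without normalization, and FPKM values for the same genes. The submitters' processing notes list Trimmomatic 0.36, HISAT2 2.2.1.0 and GRCh38.p12, and the counting program and its strand setting are not given in the sources used here. Counts were compared with edgeR 4.0.16 in R 4.3.3 (TMM, filterByExpr with a minimum count of 10, quasi-likelihood test, Benjamini-Hochberg adjustment), at an adjusted p under 0.05. Each ± on a log2 fold change is its SE. For the correction, the deviation of each library from the mean of the libraries in log2 CPM was fitted on GC content and transcript length. The fit used natural splines (5 degrees of freedom each), and the fitted values served as offsets. GC content and transcript length were found for 19343 of 20030 genes. DESeq2 1.42.0 and limma 3.58.1 served the alternatives, and tables and plots were made with pandas 2.3.3 and matplotlib 3.10.9 in Python 3.11.15. The fits were also run on simulated counts, without a GC trend or with one in parental libraries only. Here the MHCC97L-Src libraries had a trend too, so the simulation does not show how well the correction worked on these data. The floor of 3 counts, 0.167 to 0.177 CPM, covers counting error only.

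The members and the 34 gene lists (817 genes) and 38 KEGG pathways were chosen with earlier results of these data known. Genes are named if they are 1 of 8 markers, among the 15 largest changes in either direction with no library of the higher line under 100 counts and called in both fits in 1 direction (uncharacterized loci only counted), members of a list or KEGG pathway that were called or that define a list, or the 2 most counted members of a list with no call. Other genes are marked as named after their values were seen. Pathways with no gene called are given by count alone, except the ribosome. No library was counted as a duplicate of another. Alternatives were other normalizations, filters, tests, thresholds, a replicate block and leaving out each library. Some items that this rule would name are not reported here.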

Additional observations from a re-analysis of the deposited data

How the results depend on the processing

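Against 256 calls (172 rises, 84 falls), the GC and length correction gave 1278 (662, 616), the correction keeping the TMM scale, chosen after seeing the data, 1153 (339, 814), no filter 702 (268, 434), the DESeq2 Wald test 2114 (723, 1391) and limma voom with sample weights 3567 (1436, 2131). An unadjusted p under 0.05 with a log2 fold change over 1 gave 2966 (691, 2275), an adjusted p under 0.01 gave 31 (20, 11) and one under 0.1 gave 864 (444, 420). The share of rises was 67.2%, and 38.2%, 34.2% and 40.3% with no filter, DESeq2 and voom. With a library left out, calls ranged from 22 (without MHCC97L 3) to 3419 (without MHCC97L 2), rises from 11 to 690 and falls from 8 to 2729, and with the correction they were 1380 (651, 729) without MHCC97L 1, 2361 (1187, 1174) without MHCC97L 2, 584 (307, 277) without MHCC97L 3, 282 (163, 119) without MHCC97L-Src 1, 450 (258, 192) without MHCC97L-Src 2 and 447 (257, 190) without MHCC97L-Src 3. The cause of these moves was not tested.

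With the replicate number as a block, 988 genes were called (307 rose, 681 fell), and 226 with block and correction. Libraries shared only a number: deviations of same-numbered libraries correlated at -0.65 to 0.22 (mean -0.09), so the block was not read as a pairing.

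Of the 93 called genes chosen for description none changed direction in 930 comparisons with other settings, of which 69 lost the call. With a library left out 272 of 558 comparisons lost it, and with the correction 64 did and FN1 turned to 0.17 without MHCC97L 2. Reversals were otherwise in genes that did not pass. With the correction, the correction keeping the TMM scale, block and correction, and voom, log2 fold changes were -0.14, -0.37, -0.13 and -0.05 for ITGA3, -0.38, -0.67, -0.37 and -0.22 for MT2A, -0.24, -0.50, -0.25 and -0.30 for MT1E, 0.44, 0.10, 0.54 and 0.35 for CPS1, and 0.23, 0.01, 0.24 and 0.27 for LYN. MT2A was at -0.09 in both FPKM fits. Keeping the TMM scale gave -0.00 for ITGA5, -0.23 for MCM7 and -0.08 for MCM2. With a library left out, values ranged from -0.03 to 0.34 for ITGA3, -0.09 to 0.13 for MT2A, -0.09 to 0.27 for MT1E, -1.15 to 0.57 for CPS1 and -0.73 to 0.10 for LYN. With the correction and without MHCC97L 1, 2 and 3 and MHCC97L-Src 1, 2 and 3 in turn, ITGA3 was at -0.23, -0.04, -0.15, -0.14, -0.12 and -0.15, MT2A at -0.29, -0.53, -0.39, -0.34, -0.46 and -0.38, MT1E at -0.30, -0.32, -0.22, -0.15, -0.34 and -0.29, and CPS1 at 0.88, 0.15, 0.37, 0.42, 0.34 and 0.56. LYN was at 0.18, 0.51, 0.03, 0.28 and 0.39 without the first 5 of these, MCM7 at -0.02 without MHCC97L 1 or MHCC97L-Src 2, and YES1 at 0.07 without MHCC97L-Src 3.

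The 3 libraries per line came from a single resistant line, and the GC trend differed between the parental libraries. GC content from promoter or coding sequence was not run, because transcripts were given.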

Other observations

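Further called genes of the KEGG pathways belonged to none of the functional lists. CRYAB, a small heat shock protein, had 71, 92 and 123 counts in parental cells and 3, 12 and 5 in resistant cells (log2 fold change -3.68 ± 0.65, edgeR adjusted p = 0.0285). SERPINF1, which encodes the anti-angiogenic factor PEDF, had 0, 3 and 4 counts against 41, 33 and 30 (adjusted p = 0.041). TJP3, a scaffold of tight junctions, had 16, 44 and 33 against 191, 146 and 169 (2.52 ± 0.52, 0.0481). PARVA, which encodes the focal adhesion protein alpha-parvin, had 1715, 1099 and 942 against 404, 315 and 415 (-1.61 ± 0.29, 0.0327), a call that was lost with the GC and length correction (-0.88, 0.106). The lines did not overlap in these 4 genes.

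C4B had 29, 18 and 24 counts against 135, 143 and 139 (2.68 ± 0.43, edgeR adjusted p = 0.0214), and its near-identical copy C4A makes the assignment of its reads uncertain. DAB2IP, a GTPase-activating protein for RAS, had 461, 635 and 590 against 1654, 1640 and 1548 (1.63 ± 0.27, 0.0227), and ARHGEF4 had 888, 1168 and 1163 against 2386, 2169 and 2427 (1.22 ± 0.24, 0.0428). ACSS2, which makes acetyl-CoA from acetate, and FBXO2, a ubiquitin ligase subunit, rose by 1.53 and 1.46 on the log2 scale (0.0441 and 0.0467), and the cathepsin gene CTSH rose from 21 to 26 counts to 83 to 103 (0.0443). CREB3L3, ATP6V0A4 and PPP2R2B fell from at most 145, 59 and 56 counts to at most 27, 7 and 4 (0.0441, 0.0325 and 0.0481), and PPP2R2B did not pass after the correction (0.0528). Every call in these paragraphs was lost without MHCC97L 3 (0.0823 to 0.15) and, except that of CRYAB without MHCC97L-Src 2, without any one MHCC97L-Src library (up to 0.198). With the correction CRYAB, C4B, DAB2IP, ACSS2 and FBXO2 held with any library left out, and the other genes of these paragraphs lost their calls in at least 1 case.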
